A study of Mus musculus with 6 samples.

Results

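The genes described here encode the machinery with which proximal tubule cells take filtered proteins and vitamins back from the tubular fluid. They were chosen by name from the deposited gene tables, namely Lrp2, Cubn, Amn, Dab2, Clcn5, Lrpap1, Folr1, Ocrl and Rab11fip3, which are 9 of the 54532 genes listed. All 9 passed the filter on low counts that left 15816 genes to be tested. RNA was sequenced from kidney tissue of 3 WT mice and 3 Trpm2-/- mice, which the labels describe as C57BL/6J mice of 6 to 8 weeks and the study's methods as males of an older range. Every mouse, WT or Trpm2-/-, had received cisplatin at 18 mg/kg and was examined after 72 h, so the comparison is between genotypes in injured kidneys and no untreated kidney was analysed here. Per the methods, the Trpm2-/- mice carry a deletion within the Trpm2 gene that leaves a channel protein without part of its membrane-spanning region. The methods name different sources for the WT and the Trpm2-/- mice, so source and genotype cannot be told apart.

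On the brush border of the proximal tubule, megalin (encoded by Lrp2) and cubilin (Cubn) bind albumin, carriers of vitamins and many other filtered proteins. Cubilin has no membrane-spanning part of its own and depends on amnionless (Amn) to reach and stay on the cell surface. The receptors are gathered into clathrin-coated pits by the adaptor disabled-2 (Dab2), release their cargo in acidified endosomes and return to the surface. The endosomal chloride-proton exchanger ClC-5 (Clcn5) and the phosphoinositide phosphatase OCRL (Ocrl) are known from Dent disease and Lowe syndrome, in which filtered proteins are lost in the urine.

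The libraries held between 14053307 and 17150089 counts on genes. Trpm2 was counted 5, 5 and 27 times in WT and 10, 16 and 20 times in Trpm2-/- kidneys, but a count over the whole gene takes in exons that the allele keeps and does not check the deletion. The mitochondrial genome took 4.433% to 4.724% of the counts in WT kidneys and 7.909% to 11.04% in Trpm2-/- kidneys. The genotype difference also ran with gene length. The median log2 fold change (Trpm2-/- minus WT) was -0.17 over 3340 tested genes under 2 kb and 0.30 over 1274 genes over 10 kb, so each member is given below with its length and, where it matters, with a fit corrected for this trend that was added after seeing the data. The part of the length trend and of the mitochondrial share in the results was not tested.

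Of the 9 genes, 5 were lower in Trpm2-/- kidneys at an adjusted p under 0.05 (edgeR's quasi-likelihood test, Benjamini-Hochberg adjustment over all genes tested), against 7.28% of all genes tested that were lower and 12% called in either direction. These were Cubn, Folr1, Amn, Lrpap1 and Lrp2, that is, both receptors, the partner of cubilin, the chaperone of megalin and the folate receptor. By this test 0 were higher, against 4.74% of all genes, while 1 gene, Dab2, was higher at an unadjusted p under 0.05 in edgeR and at an adjusted p under 0.05 in DESeq2, though not in limma-voom. In bulk kidney RNA, fewer cells of a type and less RNA of a gene per cell cannot be told apart. At the threshold of the study's methods (absolute log2 fold change above 1 and p under 0.05, here unadjusted), 4 genes passed, all of them lower, against 4.1% of all genes lower, 3.5% higher and 7.6% in either direction. The levels of the genotypes did not overlap for 6 genes that were lower and 1 that was higher in Trpm2-/- kidneys, against 16.8% and 16.7% of all genes tested (33.5% in either direction). The median log2 fold change of the 9 genes was -0.76, against 0.02 over all genes tested.

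**Figure D1:**
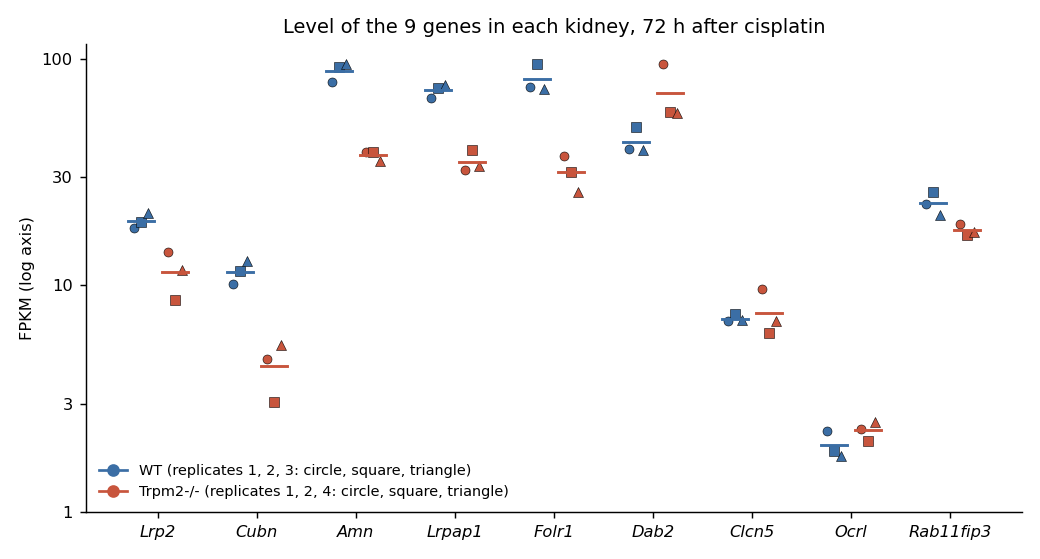
Level of each of the 9 genes in each kidney, in FPKM (fragments per kilobase of gene, scaled to library size) on a log axis. Points are single mice, bars are group means of 3 mice, and the groups are apart for every gene except Clcn5 and Ocrl.

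Megalin transcripts, from Lrp2 on chromosome 2 (69424340 to 69586065, minus strand, GRCm38, with 79 exons in the principal transcript), were at 17.8, 19.1 and 20.9 FPKM in WT replicates 1, 2 and 3. In Trpm2-/- replicates 1, 2 and 4 they were at 14.1, 8.58 and 11.7 FPKM. All Trpm2-/- kidneys lay below all WT kidneys, with replicate 2 the lowest. The log2 fold change of Lrp2 was -0.76 (standard error 0.184, adjusted p = 0.0283 from edgeR), which is 0.589 times the WT level. This call was near its limit, and the adjusted p in edgeR was 0.0923 without WT replicate 2, 0.121 without WT replicate 3 and 0.0562 without Trpm2-/- replicate 4. Lrp2 is 16701 bases long, and with the gene-length correction its log2 fold change was -1.13 (adjusted p = 0.00380 from edgeR).

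Cubilin transcripts had a larger fold change than those of megalin, a difference that is tested as a ratio further on. Cubn, on the same chromosome (13276338 to 13491813, minus strand, 67 exons in the principal transcript), had 10.1, 11.5 and 12.8 FPKM in the WT kidneys and 4.72, 3.05 and 5.44 FPKM in the Trpm2-/- kidneys. The highest Trpm2-/- value was well under the lowest WT value, and replicate 2 was again the lowest. The log2 fold change of Cubn was -1.39 (standard error 0.206, adjusted p = 0.00401 from edgeR), or 0.380 times the WT level. Cubn is 14935 bases long, and the length-corrected value was -1.73. Of its exon bases, 368 overlap the antisense gene Gm13270, and the sources used here do not state whether reads were counted by strand.

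Amn, the partner that anchors cubilin, lies on chromosome 12 (111271095 to 111276426, plus strand, 12 exons in the principal transcript). Its levels were 78.8, 91.9 and 94.3 FPKM in WT kidneys. In Trpm2-/- kidneys they were 38.5, 38.6 and 35.4 FPKM, a narrow range far below the WT kidneys. Amn fell by 1.25 on the log2 scale, to 0.421 times the WT level (standard error 0.131, edgeR adjusted p = 0.00131). Amn is a short gene of 1843 bases, and with the gene-length correction its log2 fold change was -1.06.

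Lrp2, Cubn and Amn encode one receptor complex, and the 250 bases before their RefSeq start sites (GRCm38.p6, written 5′ to 3′ on the strand of each gene) are shown to compare the promoters of genes that were lower together. Capitals mark the letters CACGTG, an E-box, and no other searched motif occurs in these 3 windows. The Lrp2 window is chr2:69586030-69586279 (minus strand), the Cubn window chr2:13491877-13492126 (minus strand) and the Amn window chr12:111270846-111271095 (plus strand).
Lrp2: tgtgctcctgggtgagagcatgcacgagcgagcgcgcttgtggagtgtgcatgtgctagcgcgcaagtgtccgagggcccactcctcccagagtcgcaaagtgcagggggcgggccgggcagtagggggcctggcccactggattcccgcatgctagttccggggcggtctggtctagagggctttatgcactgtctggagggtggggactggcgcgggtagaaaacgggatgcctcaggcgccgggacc
Cubn: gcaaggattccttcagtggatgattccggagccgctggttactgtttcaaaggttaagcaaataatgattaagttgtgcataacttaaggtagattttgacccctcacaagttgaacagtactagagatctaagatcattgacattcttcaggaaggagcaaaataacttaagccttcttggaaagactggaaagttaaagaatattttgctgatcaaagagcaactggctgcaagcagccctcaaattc
Amn: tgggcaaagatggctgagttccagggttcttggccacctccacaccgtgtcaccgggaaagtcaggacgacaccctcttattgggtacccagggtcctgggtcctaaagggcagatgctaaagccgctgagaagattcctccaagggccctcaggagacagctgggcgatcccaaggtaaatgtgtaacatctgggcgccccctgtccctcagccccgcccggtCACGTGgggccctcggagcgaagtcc
The windows of the receptor genes differ in base composition. G and C make up 66.4% of the Lrp2 window and 61.2% of the Amn window, with 18 and 11 CpG dinucleotides, but 39.6% of the Cubn window, with 2. The medians over all 32851 RefSeq windows of this length were 52.4% and 6. Windows were found for 8 of the 9 genes, 11 windows in all, and were searched on both strands. The full site of the tubule factor HNF1, which is GTTAAT, any base and the reverse complement of GTTAAT, was in 0 of the 11 windows and in 0.00913% of all windows. One arm of it, GTTAAT, was in 1 window, of Dab2, and in 6.43% of all. CAAAGTCCA, a site of HNF4, was in 1 window, of Rab11fip3, and in 0.384% of all. TGANTCA, the AP-1 site, was in 0 of the 11 windows and in 6.75% of all, and CACGTG was in the Amn window and in 6.02% of all. A match of letters is a description and does not show that a factor binds.

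Lrpap1 encodes the receptor-associated protein, a chaperone that keeps newly made megalin from binding ligands in the endoplasmic reticulum. The gene (chromosome 5, 35091501 to 35105766, minus strand, 4116 bases) had 67.0, 74.0 and 76.8 FPKM in WT kidneys and 32.4, 39.5 and 33.6 FPKM in Trpm2-/- kidneys. The groups were far apart, and in contrast to the receptors, Trpm2-/- replicate 2 was the highest of its group. Lrpap1 fell by 1.06 on the log2 scale (standard error 0.140, edgeR adjusted p = 0.00296).

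Folr1, the folate receptor that retrieves filtered folate and is internalised by the same route, lies on chromosome 7 (101858331 to 101870788, minus strand, 2297 bases). It had 74.7, 95.1 and 73.8 FPKM in WT kidneys and 37.1, 31.6 and 25.8 FPKM in Trpm2-/- kidneys. Here replicate 4 was the lowest. The log2 fold change of Folr1 was -1.38 (standard error 0.173, adjusted p = 0.00240 from edgeR), close to that of Cubn. With the gene-length correction they were apart, at -1.22 for Folr1 and -1.73 for Cubn.

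Dab2, the clathrin adaptor that binds the cytoplasmic tail of megalin, stood above its WT levels in all Trpm2-/- kidneys. The gene (chromosome 15, 6299788 to 6440712, plus strand, 7342 bases) had 39.8, 50.1 and 39.4 FPKM in WT kidneys and 94.7, 58.4 and 57.9 FPKM in Trpm2-/- kidneys. Replicate 1 was far above the others, and the lowest Trpm2-/- kidney was still above the highest WT kidney. Its log2 fold change was 0.70 (standard error 0.215, 95% interval 0.21 to 1.18) with an adjusted p of 0.0647 in edgeR, which misses the threshold. The adjusted p ranged from 0.00235 to 0.234 over the alternatives, and was under 0.05 by DESeq2 (0.0124), with upper-quartile normalization (0.0447), with no filter on low counts (0.00235) and without Trpm2-/- replicate 4 (0.0444). Without replicate 1 the log2 fold change was 0.42 (adjusted p = 0.144 from edgeR), and with the gene-length correction it was 0.55 (adjusted p = 0.119 from edgeR). Of the 75-base windows of Dab2 transcripts, 1.78% also occur in the pseudogene Gm18888.

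Dab2 is also known from macrophages, endothelium and fibroblasts, whose markers were read beside it. Of 12 macrophage markers tested, 2 were lower and 0 higher at an adjusted p under 0.05 in edgeR (2 higher at an unadjusted p under 0.05 and 1 by DESeq2). Lower markers numbered 3 at an unadjusted p under 0.05 in edgeR, 3 by DESeq2 and 0 by limma-voom. The lower ones at an adjusted p under 0.05 in edgeR, C1qa and C1qc, overlapped between genotypes. Their calls were lost in 5 and 4 of the fits that left out a mouse and with the gene-length correction (adjusted p of 0.0713 and 0.0657 in edgeR). The summed level of the 12 markers was 156 to 199 CPM (counts relative to the TMM-scaled library) in WT kidneys and 165 to 251 CPM in Trpm2-/- kidneys, highest in replicate 1, and the defining marker Adgre1 was near 0, at 0.770 and 0.626 CPM on average. Of 10 endothelial markers, 1 was lower and 0 higher (0 at an unadjusted p under 0.05 and 0 by DESeq2), with sums of 188 to 300 CPM in WT kidneys and 130 to 429 CPM in Trpm2-/- kidneys, lowest in replicate 1 and highest in replicate 4. Pecam1 averaged 17.9 and 14.8 CPM. The lower gene was Plvap, at 55.8 and 7.72 CPM on average (log2 fold change -2.85, adjusted p = 0.00126 from edgeR). Its call held without each mouse in turn and with the gene-length correction. Of 7 fibroblast markers, Acta2 alone was called, higher (not without WT replicate 1 or 2 or Trpm2-/- replicate 1 or 4, with an adjusted p of up to 0.158 in edgeR), with sums of 71.9 to 103 CPM and 73.9 to 188 CPM, and Col1a1 averaged 9.19 and 9.41 CPM. None of these defining markers was at 0 in any library. The macrophage sum and Dab2 were both highest in Trpm2-/- replicate 1, while the endothelial and fibroblast sums were highest in replicate 4, where Dab2 was lowest of its group. The part of these cells in the Dab2 difference was not tested.

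No difference was called for the genes of the endosome. Clcn5 (X chromosome, 7153810 to 7319358, minus strand, 11452 bases) had 6.95, 7.44 and 7.01 FPKM in WT kidneys and 9.61, 6.15 and 6.92 FPKM in Trpm2-/- kidneys, so the Trpm2-/- kidneys lay on both sides of the WT kidneys. Its log2 fold change was 0.07 (95% interval -0.31 to 0.45, adjusted p = 0.821 from edgeR), and it turned to -0.14 without Trpm2-/- replicate 1 and to -0.18 with the gene-length correction. Ocrl (X chromosome, 47912387 to 47965868, plus strand, 9486 bases) was the lowest of the 9 genes per length, with 2.29, 1.86 and 1.77 FPKM in WT kidneys and 2.33, 2.05 and 2.50 FPKM in Trpm2-/- kidneys. The groups overlapped, and the log2 fold change was 0.21 (95% interval -0.15 to 0.56, adjusted p = 0.431 from edgeR), or 0.020 with the gene-length correction (adjusted p = 0.945 from edgeR). These intervals leave out a decrease of the size measured for Cubn, Amn, Folr1 or Lrpap1.

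Rab11fip3, an effector of the small GTPase Rab11 on recycling endosomes, had 22.9, 25.8 and 20.4 FPKM in WT kidneys. It had 18.7, 16.7 and 17.1 FPKM in Trpm2-/- kidneys, all below the WT kidneys though the gap was small. Its log2 fold change was -0.41 (95% interval -0.71 to -0.11, adjusted p = 0.0785 from edgeR), which misses the threshold. With the gene-length correction it was -0.52 (adjusted p = 0.0326 from edgeR). The gene lies on chromosome 17 (25989036 to 26069409, minus strand, 6789 bases), and 515 of its exon bases overlap the antisense gene 1700022N22Rik.

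**Figure D2:**
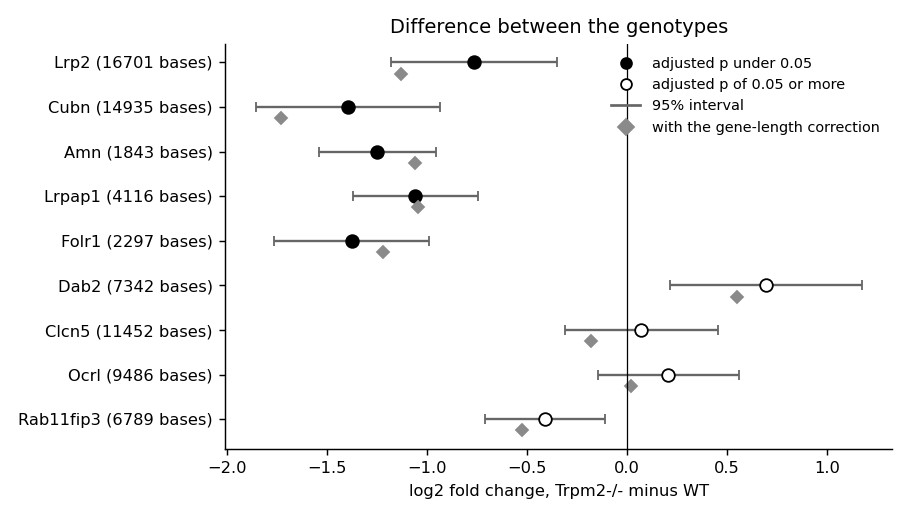
Log2 fold change of each gene (x axis, Trpm2-/- minus WT, 3 mice each) with its 95% interval from edgeR, filled where the adjusted p was under 0.05. Grey diamonds are the values with the gene-length correction, which moved Lrp2 to -1.13 and Cubn to -1.73 and took Clcn5 across 0.

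Per length and in WT kidneys, the order of mean levels was Amn (88.4 ± 8.36 FPKM, SD, n = 3), Folr1 (81.2 ± 12.1), Lrpap1 (72.6 ± 5.04), Dab2 (43.1 ± 6.04), Rab11fip3 (23.0 ± 2.70), Lrp2 (19.3 ± 1.54), Cubn (11.5 ± 1.36), Clcn5 (7.13 ± 0.269) and Ocrl (1.97 ± 0.279). Of neighbours in this order, Amn and Folr1, Folr1 and Lrpap1, and Rab11fip3 and Lrp2 overlapped from mouse to mouse, and the other neighbours did not. In Trpm2-/- kidneys Dab2 came first, at 70.3 ± 21.1 FPKM, followed by Amn (37.5 ± 1.83), Lrpap1 (35.2 ± 3.77), Folr1 (31.5 ± 5.61), Rab11fip3 (17.5 ± 1.03) and Lrp2 (11.4 ± 2.75). The values of Dab2 were above all those of Amn, Lrpap1 and Folr1, which overlapped among themselves. Clcn5 (7.56 ± 1.82 FPKM) stood above Cubn (4.40 ± 1.22 FPKM) there, with no overlap between them, while in WT kidneys Cubn stood above Clcn5.

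Ratios of partner genes within a library do not depend on how libraries are scaled. Cubn relative to Lrp2 was 0.565, 0.605 and 0.612 in WT kidneys and 0.336, 0.356 and 0.466 in Trpm2-/- kidneys, per length. Every Trpm2-/- ratio was below every WT ratio. The difference of the mean log2 ratios was -0.64 (exact permutation test, two-sided, p = 0.1, which is the smallest possible with 3 mice against 3, and 0.25 after Benjamini-Hochberg adjustment over 5 ratios). Dab2 relative to Lrp2 was 2.23, 2.62 and 1.88 in WT kidneys and 6.74, 6.80 and 4.95 in Trpm2-/- kidneys, a difference of 1.45 on the log2 scale (exact permutation test, p = 0.1, adjusted 0.25). The groups were apart here as well, with the adaptor 2.74-fold higher relative to its receptor.

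For the other 3 ratios the groups overlapped. Amn relative to Cubn was 7.82, 7.97 and 7.37 in WT kidneys and 8.17, 12.6 and 6.51 in Trpm2-/- kidneys (difference 0.18 on the log2 scale, exact permutation test, p = 0.7, adjusted 0.7). The high value belongs to Trpm2-/- replicate 2, where Cubn was lowest, and the difference turned to -0.081 without it. Lrpap1 relative to Lrp2 was 3.75, 3.88 and 3.67 in WT kidneys and spread over 2.30, 4.60 and 2.88 in Trpm2-/- kidneys (difference -0.27, exact permutation test, p = 0.4, adjusted 0.667). Ocrl relative to Clcn5 was 0.329, 0.249 and 0.252 against 0.242, 0.334 and 0.360 (difference 0.16, exact permutation test, p = 0.6, adjusted 0.7). The first 2 of these ratios had an SD of 0.06 and 0.04 on the log2 scale in WT kidneys, against 0.49 and 0.51 in Trpm2-/- kidneys. For Ocrl to Clcn5 the SD was 0.23 and 0.30, for Dab2 to Lrp2 0.24 and 0.26, and for Cubn to Lrp2 0.06 and 0.25. Over all genes too, pairs of Trpm2-/- libraries differed more (chi-square over its degrees of freedom 32.13 to 36.7) than pairs of WT libraries (13.46 to 18.65).

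**Figure D3:**
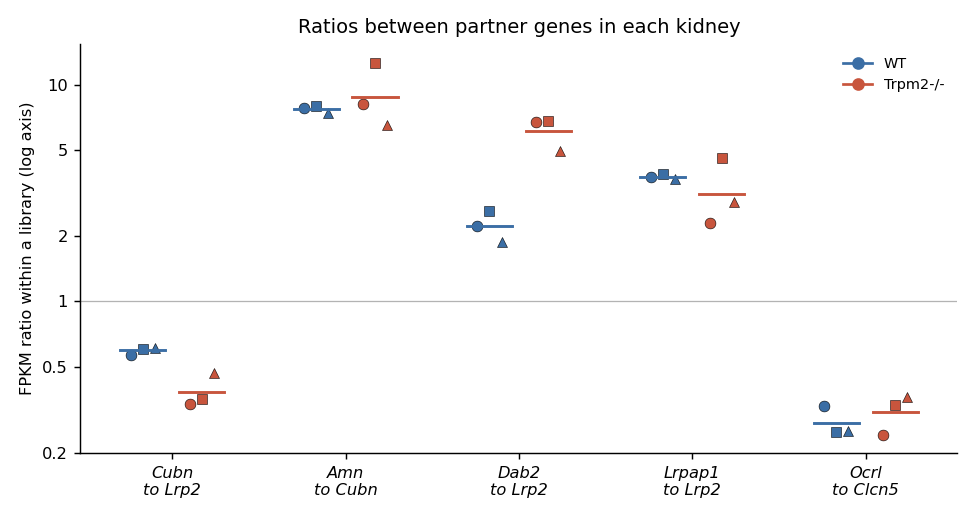
FPKM ratios of partner genes within each library, on a log axis, with points for single mice and bars for the mean of the log2 ratios of 3 mice. The genotypes are apart for Cubn to Lrp2 and Dab2 to Lrp2 and overlap for the other 3 ratios.

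The markers of the proximal tubule, the segment where this machinery sits, were lower too. Of 30 markers, 22 were lower and 0 higher at an adjusted p under 0.05 in edgeR (0 also at an unadjusted p under 0.05 and by DESeq2), with a median log2 fold change of -1.37 against 0.02 over all genes tested. Their summed level was 19520 to 22686 CPM in WT kidneys and 6861 to 8984 CPM in Trpm2-/- kidneys. The phosphate carrier Slc34a1 fell from 1011 ± 244 to 152 ± 92.4 CPM and the glucose carrier Slc5a2 from 118 ± 18.6 to 50.1 ± 10.3 CPM (SD, n = 3, edgeR adjusted p = 0.00391 and 0.00402). The part of this shift in the results for the 9 genes was not tested.

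Set against the mean log2 level of these 30 markers in the same library, Cubn, Folr1, Amn and Lrpap1 differed little between genotypes. The differences were -0.07 for Cubn, -0.03 for Folr1, 0.11 for Amn and 0.29 for Lrpap1, with overlapping groups. Lrp2 was higher relative to the markers in all Trpm2-/- kidneys, by 0.56 on the log2 scale, with relative log2 levels of 1.07, 1.05 and 1.01 in WT and 1.96, 1.47 and 1.39 in Trpm2-/- kidneys. Rab11fip3, Clcn5, Ocrl and Dab2 were also above, by 0.95, 1.40, 1.56 and 2.02, without overlap. The marker mean itself was lower by 1.35 in Trpm2-/- kidneys, without overlap, so a gene of unchanged CPM comes out higher by about that much. The share of all genes without overlap on this measure was not computed. In exact permutation tests of the 9 differences, p was 0.1 for the 5 genes without overlap, the smallest possible with 3 mice against 3 (0.18 after Benjamini-Hochberg adjustment over the 9), and 0.3 to 0.8 for the other 4. This measure was added after the data had been seen.

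Other segments and the injury response gave the following values. Of 14 tubular injury markers, 6 were higher and 0 lower (0 at an unadjusted p under 0.05 and 0 by DESeq2), with sums of 18561 to 20650 CPM in WT kidneys and 21083 to 29211 CPM in Trpm2-/- kidneys, the highest in replicate 1, which also had the most Dab2. Of the 6, Vim and Timp1 were called without each mouse in turn, while Sox4, Cd44, Krt20 and Sox9 lost their call in 5, 4, 3 and 1 of these fits. Havcr1, which encodes Kim-1, was at 1233 ± 139 and 1751 ± 178 CPM (SD, n = 3, adjusted p = 0.0747 from edgeR), and Lcn2 at 1123 ± 187 and 1461 ± 181 CPM (adjusted p = 0.199 from edgeR). Umod of the thick ascending limb fell by 1.97 on the log2 scale, a call lost without WT replicate 1, WT replicate 3 or Trpm2-/- replicate 1 or 2 (adjusted p of up to 0.118 in edgeR), and its neighbour in that segment Slc12a1 had -0.76 (adjusted p = 0.510 from edgeR), and that list, with the distal tubule, had 1 lower gene of 8. Of 11 collecting duct markers 2 were lower, Aqp2 and Aqp3. Aqp2 fell by 1.02 and was called without each mouse in turn. The call of Aqp3 was lost without any one mouse (adjusted p of up to 0.224 in edgeR) and with the gene-length correction (0.226). Of 8 podocyte markers 0 were called in edgeR (3 higher at an unadjusted p under 0.05 and 1 by DESeq2), and their sum was 579 CPM in Trpm2-/- replicate 4 against 151 to 201 CPM in all other kidneys.

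The wider endocytic pathway was read in 7 lists of 178 genes compiled from general knowledge, of which 169 were tested and 27 were called in edgeR. Where edgeR called 0 genes of a list in a direction, so did limma-voom, with the exception of 1 higher gene of the LDL receptor family. Of 29 tested genes of the clathrin coat and its adaptors, 2 were higher and 0 lower (3 lower at an unadjusted p under 0.05 and 1 by DESeq2), with a median log2 fold change of 0.15. Itsn2, a scaffold of coated pits, went from 60.2 ± 8.22 to 98.4 ± 12.8 CPM and Epn2, an epsin that binds clathrin and membrane, from 32.2 ± 4.62 to 48.7 ± 1.88 CPM (SD, n = 3). Neither gene kept its call without WT replicate 2 or WT replicate 3 (Itsn2 with adjusted p = 0.0841 and 0.103, Epn2 with adjusted p = 0.119 and 0.141, from edgeR). The call of Epn2 was also lost without Trpm2-/- replicate 1 (adjusted p = 0.0530 from edgeR) and that of Itsn2 with the gene-length correction (adjusted p = 0.0609 from edgeR).

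Of 38 tested GTPases and effectors of endosomes, 2 were lower and 1 higher, with a median of 0.05. Rab38, a GTPase of lysosome-related organelles, fell from 12.2 ± 1.98 to 4.42 ± 1.56 CPM, a log2 fold change of -1.47 (adjusted p = 0.0134 from edgeR). That call was lost without WT replicate 2 or WT replicate 3, at an adjusted p of 0.0619 and 0.0585 in edgeR. Eea1, a tether of early endosomes (0.60, adjusted p = 0.0411 from edgeR), and Rab11fip4, the closest relative of Rab11fip3 (-0.56, adjusted p = 0.0477 from edgeR), were just past the threshold. Eea1 lost its call without each mouse except Trpm2-/- replicate 2, with an adjusted p of up to 0.154, and Rab11fip4 lost it without any one mouse, with an adjusted p of up to 0.144. The motor Myo6 and the clathrin heavy chain Cltc, which are among the partners of Dab2, were not called, with log2 fold changes of -0.11 and 0.22. Rab11a, a form of the GTPase Rab11, had 0.05 and was not called either.

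Of 28 tested acidification genes, 5 were lower, or 17.9% against 7.28% of all genes tested, and 0 were higher (2 higher at an unadjusted p under 0.05 and 0 by DESeq2), with a median of -0.22, and all 5 encode subunits of the vacuolar proton pump. Atp6v0a4, a subunit of the pump in the kidney's apical and intercalated cell membranes, fell from 415 ± 57.4 to 175 ± 43.7 CPM (SD, n = 3). This is -1.24 on the log2 scale (edgeR adjusted p = 0.00546), and the gene was called without each mouse in turn. Atp6v1f fell by 0.68 and Atp6v1e1 by 0.60 on the log2 scale, and both calls were lost without WT replicate 2 or WT replicate 3 (adjusted p of 0.0794 and 0.0873 for Atp6v1f, 0.107 and 0.108 for Atp6v1e1, in edgeR). The relatives of Clcn5 in the list, Clcn3, Clcn4, Clcn6 and Clcn7, had log2 fold changes of -0.22, -0.08, -0.08 and 0.17, and none was called. Without WT replicate 2 or WT replicate 3, 1 gene of the list was called.

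Among 23 genes of phosphoinositide phosphatases, kinases and their partners, a list built around Ocrl, 0 were lower (2 at an unadjusted p under 0.05 and 0 by DESeq2) and 1 was higher. This was Pikfyve, a kinase of late endosomes, with a log2 fold change of 0.49 (adjusted p = 0.0435 from edgeR). It lost its call without each mouse except Trpm2-/- replicate 2, and its value was 0.11 with the gene-length correction (it is 19211 bases long). Inpp5b, the closest relative of Ocrl, had -0.38 (adjusted p = 0.144 from edgeR). Of 14 tested members of the LDL receptor family other than Lrp2, 0 were called (2 lower and 2 higher at an unadjusted p under 0.05, and 0 lower and 1 higher by DESeq2), with a range of log2 fold changes from -0.48 to 0.69. Lrp1, like megalin a giant receptor of this family and a client of the same chaperone, had -0.07.

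Of 20 genes for the uptake and use of folate, 10 were lower, or 50% against 7.28% of all genes tested, and 1 was higher, with a median of -0.59. The folate carriers of the cell membrane besides Folr1, Slc19a1 and Slc46a1, fell by 0.98 and 1.00 on the log2 scale. Shmt2 and Amt, which hand carbon from serine and glycine to folate in mitochondria, fell from 206 ± 19.6 to 81.6 ± 5.62 CPM and from 76.9 ± 4.62 to 31.8 ± 1.63 CPM (SD, n = 3). Mthfd1, which interconverts folates in the cytosol, fell by 1.12, and Shmt2, Amt and Mthfd1 were called without each mouse in turn. Slc19a1 was not called without WT replicate 2 (adjusted p = 0.0611 from edgeR). Mtr, methionine synthase, was the higher gene, at 0.67 (adjusted p = 0.0263 from edgeR), and its call was lost without any one WT mouse, without Trpm2-/- replicate 1 (adjusted p of up to 0.122 in edgeR) and with the gene-length correction (0.0552).

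Of 17 tested genes for handling of vitamins B12, D and A, cargo that enters with the receptors, 4 were lower and 1 higher, with a median of 0.03. Cd320, the receptor for transcobalamin-bound B12, fell from 30.9 ± 3.52 to 16.0 ± 0.450 CPM (SD, n = 3), or by 0.95 on the log2 scale (edgeR adjusted p = 0.00482). Mmab, an enzyme of B12 metabolism, fell by 0.82, and Ttr, a carrier of retinol-binding protein, by 1.08, but both calls were lost without WT replicate 2 or WT replicate 3, and that of Ttr also without Trpm2-/- replicate 1 (adjusted p of up to 0.114 for Mmab and 0.0873 for Ttr, in edgeR). Tcn2, which encodes transcobalamin, the B12 carrier taken up by megalin, fell by 0.71, with a call that was lost without each mouse except Trpm2-/- replicate 1 (adjusted p of up to 0.121 in edgeR) and with the gene-length correction (0.118). The higher gene was Cyp24a1, which breaks down vitamin D, at 0.88 (adjusted p = 0.0382 from edgeR), called in the fits without WT replicate 1 and without Trpm2-/- replicate 2 and not called in the other 4 that left out a mouse (adjusted p of up to 0.148 in edgeR). Cyp27b1, which activates vitamin D, had 0.53 (adjusted p = 0.334 from edgeR).

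**Figure D4:**
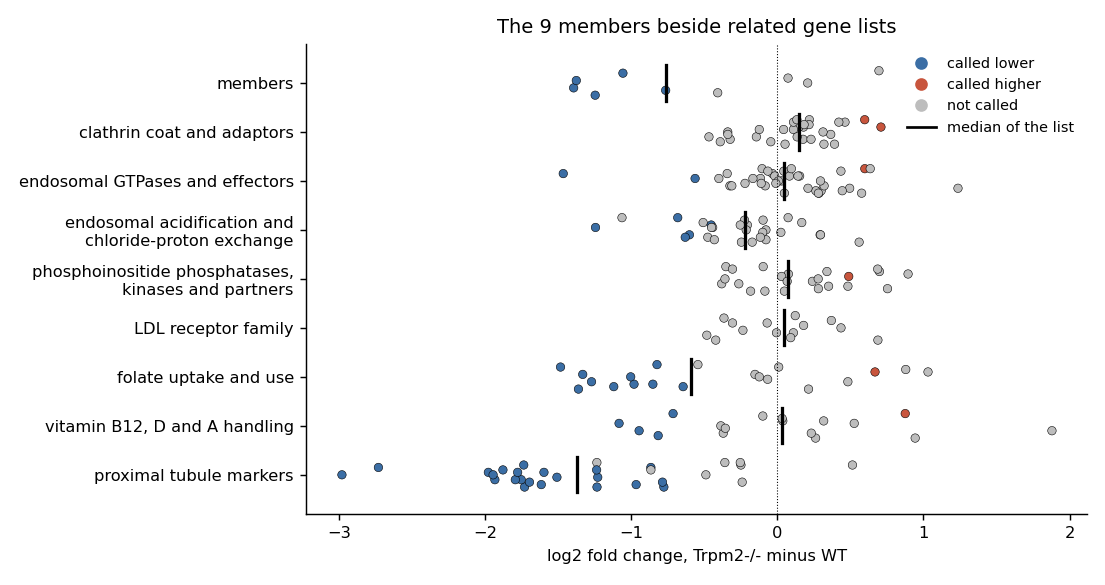
Log2 fold change (x axis, Trpm2-/- minus WT) of each tested gene, with the 9 members above 7 lists of related genes and the proximal tubule markers, coloured by the call at an adjusted p under 0.05. The black bars are the medians, which were -0.76 for the members, -0.59 for the folate list and -1.37 for the proximal tubule markers, and lay between -0.22 and 0.15 for the other lists.

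The profiles of the 9 genes over the 6 libraries were also compared with each other. The distance between the profiles of a pair of genes was taken as the root mean square difference of their log2 CPM values over the 6 libraries, each centred on its own mean. The closest pair was Amn and Lrpap1 (0.125), followed by Amn and Folr1 (0.180). Amn was nearer to these than to its partner Cubn (0.297), and Cubn and Lrp2 were 0.352 apart. Amn, Folr1 and Lrpap1 are short genes (1843, 2297 and 4116 bases) beside Cubn and Lrp2 (14935 and 16701 bases). The distances were not corrected for gene length, and the part of the length trend in them was not tested. The farthest pair was Cubn and Dab2 (1.10).

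The same measure was run against 9468 protein-coding genes of at least 10 CPM. For Lrp2 the nearest profiles were those of Abhd3 (0.0782), Adk, Svip, Mcur1 and Tcn2 (0.0952), where the median over all genes was 0.490. Tcn2, as noted for the vitamin list, encodes a ligand of megalin. For Cubn they were Pcca (0.0583), Aadac, Gsta2, Gsta3 and Abat (0.137), against a median of 0.778, and for Gsta2 36.6% of the 75-base transcript windows occur in other genes. For Dab2 they were Slc30a4 (0.0655), Spty2d1, Trp53inp1, Camk2d and Grb10 (0.0948), against a median of 0.463. The 6 libraries are shared by all genes and fall into 2 genotypes, so genes with a like genotype difference are near each other by construction.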

How the data were processed

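Kidney RNA of 6 mice was sequenced with the NEBNext Ultra II kit on an Illumina HiSeq instrument per the methods, and the library selection is not given in the sources used here. The submitters' processing notes name HISAT2, StringTie and the build mm9, without roles, but 98.3% of 54409 gene positions in the tables equal those of GRCm38 (GENCODE M21), and positions are given in GRCm38. The authors deposited whole-number read counts per gene, without normalization, and FPKM values, whose implied library totals were not the sums of the counts but followed the TMM-scaled library sizes closely. The counting tool and strand setting are not given in the sources used here. All 6 columns of both tables were used (0 other columns of sample values).

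Counts were analysed with edgeR 4.0.16 in R 4.3.3. filterByExpr kept 15816 genes, TMM scaled the libraries, and a quasi-likelihood F test (two-sided, genotype as the only term, common dispersion 0.0445) was adjusted by Benjamini-Hochberg. Each standard error is the size of the log2 fold change over the root of F. Levels are FPKM as deposited or TMM-scaled CPM, and 3 counts equal 0.175 to 0.213 CPM per library (counting error only). The methods do not say whether the p of their threshold was adjusted, and it is applied here unadjusted. The libraries are separate mice by their labels, and replicates differed from each other far beyond counting noise (chi-square over its degrees of freedom 13.5 to 36.7).

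The alternatives were DESeq2's size factors, upper-quartile scaling, no filter, a mean of at least 1 CPM, the DESeq2 1.42.0 Wald test, limma-voom (limma 3.58.1), limma on FPKM in log2 with a pseudocount of 1 or 0.1, the protein-coding subset, no mitochondrial genome, the replicate number as a block, each mouse left out, and the gene-length correction. Genes named are the 9 members, up to 3 called genes of each list with the smallest p, defining markers, and 5 nearest profiles for Lrp2, Cubn and Dab2. Other list genes (Acta2, Myo6, Cltc, Rab11a, the relatives of Clcn5, Inpp5b, Lrp1, Slc19a1, Slc46a1, Mtr, Tcn2, Cyp24a1 and Cyp27b1) were named after their values were seen, and 1 gene that the rule covers is not reported here. Members and lists were chosen with earlier results of these data known, and the motifs, the gene-length correction and the levels relative to proximal tubule markers after the data had been seen. Promoter windows are from RefSeq (GRCm38.p6), and shared windows and overlaps from GENCODE M21.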

Additional observations from a re-analysis of the deposited data

How the results depend on the processing

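The number of members called lower, 5, was 3 with limma on log2(FPKM + 0.1), which dropped Lrp2 and Cubn. It lay between 4 and 5 with each mouse left out, and was 6 with the gene-length correction, which added Rab11fip3. Amn, Folr1 and Lrpap1 were called lower under all 18 alternatives and Cubn under 17. Lrp2 was called under 12 and stayed below 0 under all 18. Dab2 made the number of members called higher 1 in place of 0 by DESeq2, with upper-quartile normalization and with no filter on low counts, and 0 to 1 with each mouse left out. The number past the methods' threshold ranged from 3 to 5 around 4. The 27 called genes of the pathway lists became 45 with no filter, 14 and 4 with limma on log2(FPKM + 1) and log2(FPKM + 0.1), and 9 to 32 with each mouse left out, where 9 is the count without WT replicate 2 and 10 that without WT replicate 3. Over all genes, 1152 lower and 750 higher became 521 and 176 without WT replicate 2 and 470 and 160 without WT replicate 3. Clcn5 turned from 0.07 to -0.14 without Trpm2-/- replicate 1 and to -0.18 with the gene-length correction, and with each mouse left out it lay between -0.14 and 0.20. The Amn to Cubn ratio difference lay between -0.081 and 0.40 with each mouse left out, and the other 4 ratio differences kept their sign under the 8 alternatives run for each. These were counts in place of FPKM, which cannot change the difference, a pseudocount of 0.1 and each mouse left out. The gene-length correction was not run for the ratios. With it Lrpap1 fell less (-1.05) than Lrp2 (-1.13), the opposite order to their ratio difference of -0.27. Amn (-1.06) and Cubn (-1.73) were further apart with the correction than without it (-1.25 and -1.39), where their ratio difference was 0.18.

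Replicate numbers 1 and 2 occur in both genotypes but label different mice. Same-numbered libraries had deviations from their group means that correlated by 0.0641 and -0.0121, so the numbers were not taken to pair the mice. With the replicate number as a block, 15 genes of the pathway lists were called in place of 27, and 661 lower and 341 higher genes overall. Replicate 3 exists only in WT and replicate 4 only in Trpm2-/- kidneys, so they add nothing to the genotype term of that fit. It compares replicates 1 and 2 of each genotype alone. Lrp2 had -0.75 (adjusted p = 0.0925 from edgeR) in that fit, and the calls of the other 8 members were as without the block. Depth was not limiting for the members, whose lowest count was 313, for Ocrl. The number of mice, 3 in each group, limits the ratio tests to p of 0.1 or above.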
